A study of Mus musculus with 8 samples.

Results

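The 9 genes described here code for proteins of the smooth muscle thin filament: the actins Acta2 and Actg2, the tropomyosins Tpm1 and Tpm2, and the actin-binding proteins Lmod1, Cald1, Cnn1, Tagln and Smtn. They were chosen by gene symbol from the 21649 genes of the deposited expression table, and each symbol had a single entry. The rule uses symbols and no measured value, but the group was proposed with earlier results of these data known. RNA sequencing was done on 8 libraries of mouse cells that the labels call non-vascular smooth muscle cells, isolated by fluorescence-activated sorting: 3 from bladder, 3 from intestine and 2 from lung. The series set out to compare these cells between tissues, and no other group was analysed here. All mice had the genotype Cspg4-Dre/Acta2-CreERT/R26-GFP, that is Dre recombinase driven by Cspg4, tamoxifen-dependent Cre recombinase driven by Acta2, and GFP placed at Rosa26 as the reporter. Every mouse received tamoxifen in corn oil (20 mg per mL) into the peritoneal cavity, on 3 days, at a dose of 0.75 mg for each 10 g the animal weighed. The Acta2 gene that drives the CreERT is itself one of the 9 genes, so the cells were obtained through the activity of its promoter. The labels give neither age nor sex, nor the sorting gate, and they do not say whether the libraries of a tissue came from separate mice. The p-values below therefore measure the spread between libraries, which may be technical.

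In smooth muscle the thin filament is an actin polymer with tropomyosin lying along it, and myosin pulls on it once the myosin light chains are phosphorylated. Caldesmon and calponin bind actin and restrain the myosin ATPase, leiomodin starts new filaments, and transgelin and smoothelin bind along actin. These genes are textbook markers of contractile smooth muscle, and many are targets of serum response factor with its coactivator myocardin. Serum response factor binds a short promoter motif called the CArG box.

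A pair of sequence comparisons bears on how these genes were read. The first is of the smooth muscle actins, whose messages resemble each other, which matters for assigning short reads. The coding sequences of Acta2 and Actg2 were identical at 948 of 1131 aligned bases (83.8%), and their longest identical run was 29 bases. The most similar 120 bases, coding positions 884 to 1003 of Acta2-201 and 881 to 1000 of Actg2-201 in GENCODE M21, are shown with the 14 differing bases in capitals.
Acta2: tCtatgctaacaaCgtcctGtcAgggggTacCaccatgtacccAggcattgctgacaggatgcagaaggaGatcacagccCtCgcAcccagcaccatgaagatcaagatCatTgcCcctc
Actg2: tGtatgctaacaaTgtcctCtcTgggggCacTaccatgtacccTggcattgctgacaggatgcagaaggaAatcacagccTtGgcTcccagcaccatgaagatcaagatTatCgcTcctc
Even in this stretch differing bases recurred at short intervals. Of the 1986 stretches of 50 bases in the transcript Acta2-201, 7 also occurred in transcripts of another gene, the cytoplasmic actin Actg1 and actin pseudogenes, and 0 of 1284 did for Actg2-201. In 1 transcript per gene, no such stretch was shared for Cnn1, Cald1, Tpm1, Tpm2 or Lmod1.

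The second is promoter sequence, given for Acta2, the driver of the CreERT, and for Lmod1, whose level differed most between tissues. RefSeq promoter entries (build GRCm38.p6) were matched by symbol for 7 of the 9 genes, and Actg2 and Tagln had no entry. The 250 bases before each start were searched on both strands for the CArG box (CC, a core of 6 A or T bases, GG), exactly or with at most 1 G or C in the core. Acta2 lies at chr19:34255374-34255623 (minus strand) and Lmod1 at chr1:135324563-135324812 (plus strand). Capitals mark CArG boxes with 1 G or C in the core.
Acta2: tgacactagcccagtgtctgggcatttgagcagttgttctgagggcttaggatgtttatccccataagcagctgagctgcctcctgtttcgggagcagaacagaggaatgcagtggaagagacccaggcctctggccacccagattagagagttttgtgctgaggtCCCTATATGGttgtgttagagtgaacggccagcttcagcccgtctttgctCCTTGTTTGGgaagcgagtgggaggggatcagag
Lmod1: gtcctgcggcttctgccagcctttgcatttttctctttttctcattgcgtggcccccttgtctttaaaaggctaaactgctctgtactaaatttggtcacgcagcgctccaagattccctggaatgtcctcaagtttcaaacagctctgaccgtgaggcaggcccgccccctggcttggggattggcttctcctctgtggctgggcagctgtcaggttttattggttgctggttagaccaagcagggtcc
Acta2 had 2 boxes with 1 G or C, CCCTATATGG ending 74 bases and CCTTGTTTGG ending 24 bases before the start, and the other 6 genes had none. An exact box was found in 0 of the 7 genes and in 482 of all 32851 promoter windows (1.47%). With 1 G or C allowed the share over all windows was 8.59% (2823 windows). A match describes letters and is not a bound site, and a window without one says only that these letters are not in it.

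Values are normalized read counts, scaled between libraries by the submitters and rounded. The spacing of the values gave back the reads behind them, 9.72 to 10.95 M per bladder library, 12.02 to 13.19 M per intestine library and 12.67 to 13.62 M per lung library (M, 1000000 reads). Of all genes, 18097 reached 10 in 2 or more libraries and were tested with limma on log2(value + 1), with Benjamini-Hochberg adjustment over them and a threshold of 0.05. All 9 thin filament genes were in this set, with a lowest value of 155 in any library, which is far above the 2.47 to 3.81 that 3 reads were worth. On the log2(value + 1) scale 1 unit is a doubling. Fits with the deposited scaling undone, given below, do not correct for depth. They raise nearly all genes outside bladder by a like amount, so small negative differences from bladder had to turn positive there. In sorted bulk samples, fewer cells of a type and less RNA per cell cannot be told apart. The 3 pairwise comparisons share libraries and are not independent of each other. The 2 lung libraries differed more from each other than any pair within bladder or intestine, and 1 spread per gene was fitted for all tissues.

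The thin filament genes did not behave as a block. Lmod1 was far lower in bladder than in intestine or lung, Tagln increased from bladder to intestine to lung, and Cald1 and Smtn were slightly higher outside bladder. Acta2 overlapped in all tissues, and the small differences of Actg2, Cnn1, Tpm1 and Tpm2 from bladder turned in direction when the libraries were scaled otherwise.

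**Figure D1:**
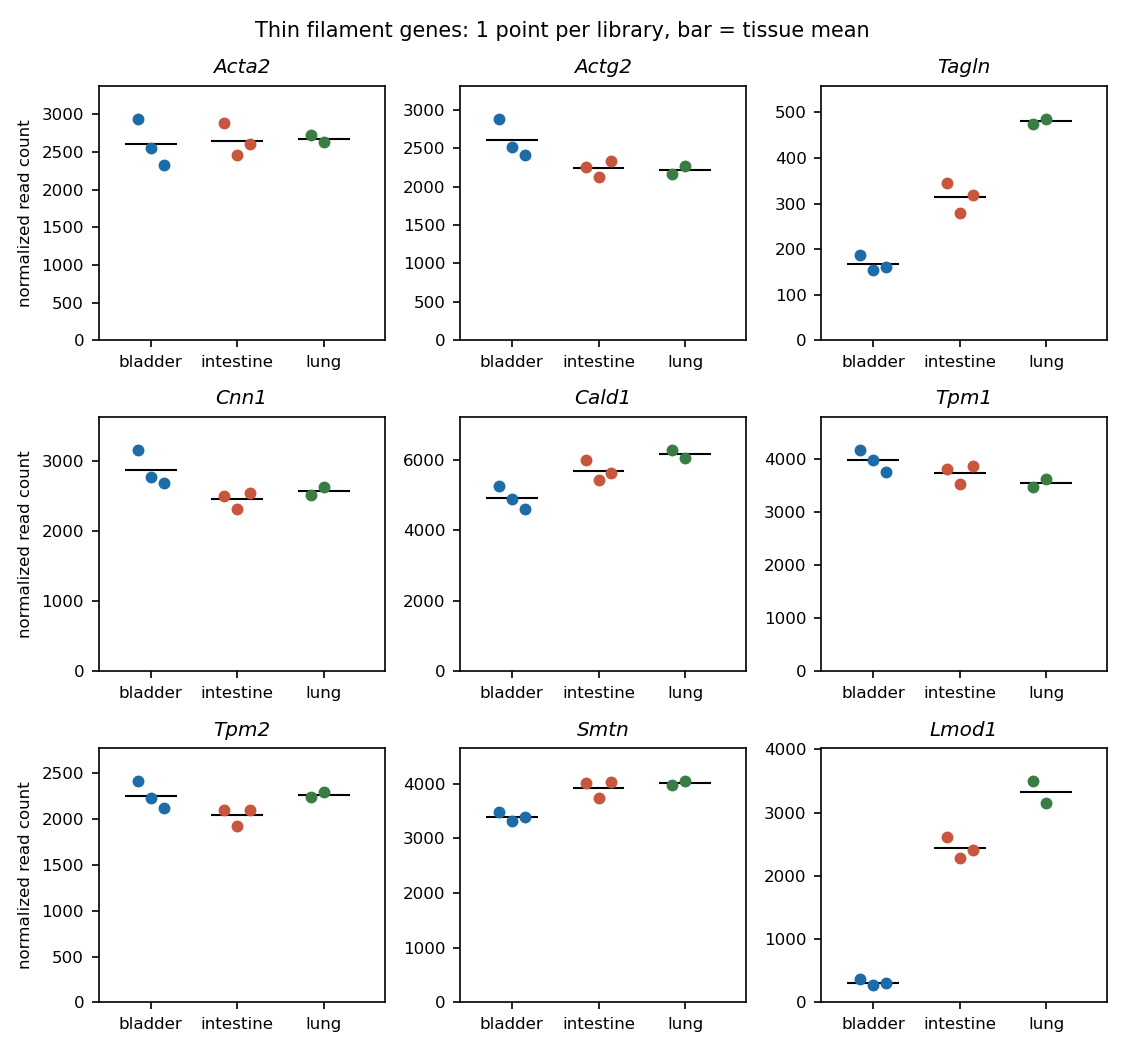
Normalized read count of each thin filament gene (vertical axes, each from 0) in bladder, intestine and lung, with 1 point per library and a bar at the tissue mean. The Lmod1 points lie between 268 and 363 in bladder and between 2288 and 3496 elsewhere, whereas the Acta2 points lie between 2323 and 2933 in all tissues.

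Acta2, the alpha-actin of smooth muscle (mm39, chromosome 19, 34218490 to 34232990, minus strand), was at 2933, 2549 and 2323 normalized counts in bladder libraries 1, 2 and 3. It was at 2876, 2454 and 2600 in intestine and at 2719 and 2630 in lung. The tissues overlapped completely, with means of 2602 ± 308 (SD, n = 3), 2643 ± 214 (SD, n = 3) and 2674.5 ± 62.9 (SD, n = 2). The intestine minus bladder difference was 0.03 (SE 0.09, limma adjusted p = 0.829) and became -0.13 when libraries were scaled on genes of low read density. Acta2 passed as higher in intestine than bladder with the deposited scaling undone (0.42, adjusted p = 0.00167) and with quantile normalization (0.29, adjusted p = 0.0127). Lung minus bladder was 0.05 (SE 0.10, adjusted p = 0.766) and lung minus intestine 0.02 (SE 0.10, adjusted p = 0.899). A p-value that misses the threshold does not show equal levels, and differences of the size of these standard errors were not detectable.

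Actg2, the gamma-actin of enteric and other visceral smooth muscle (chromosome 6, 83489887 to 83513247, minus strand), was at 2875, 2519 and 2412 in bladder. The intestine libraries held 2256, 2125 and 2335 and the lung libraries 2160 and 2266. Every bladder library was above every intestine and lung library, and intestine and lung overlapped. The intestine minus bladder difference was -0.21 (SE 0.08, limma adjusted p = 0.0434). It turned to 0.18 with the deposited scaling undone, which leaves depth uncorrected. With quantile normalization it was 0.03 and with equal totals it stayed negative, so its direction rests on the scaling. It also missed the threshold without any one of the libraries bladder 1, bladder 2 or intestine 1 to 3 (adjusted p 0.0605 to 0.159, differences -0.24 to -0.14). Lung minus bladder was -0.23 (SE 0.09, adjusted p = 0.061; -0.28 and 0.0396 without bladder library 3), and lung minus intestine -0.02 (SE 0.09, adjusted p = 0.902).

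The balance of these actins within a library does not depend on any scaling between libraries. Actg2 divided by Acta2 was 0.980, 0.988 and 1.04 in bladder, 0.784, 0.866 and 0.898 in intestine and 0.794 and 0.862 in lung. Each bladder ratio was above each intestine and lung ratio, and the mean was 1.00 ± 0.0315 (SD, n = 3) in bladder against 0.8495 ± 0.0586 (SD, n = 3) in intestine. These ratios were described and not tested. Both actins are among the genes with the most reads per nt, and within intestine and lung the reads of Actg2 varied by less than counting error (variance over mean 0.018 and 0.019). The submitters' processing notes name Picard without its role. Whether duplicate reads were removed, and what part that had in the counts of such genes, in the Acta2 levels and in ratios to them, was not tested.

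Lmod1, leiomodin 1, the smooth muscle member of a family that nucleates actin filaments (chromosome 1, 135252545 to 135295803, plus strand), showed the largest differences among the 9 genes. It was at 363, 268 and 308 in the bladder libraries. In intestine it was at 2610, 2288 and 2415, and in lung at 3496 and 3156. No pair of tissues overlapped. The mean was 7.79 times as high in intestine as in bladder (log2 difference 2.97, SE 0.11, limma adjusted p = 2.42e-07) and 10.6 times as high in lung (3.41, SE 0.13, adjusted p = 2.49e-07). Lung was above intestine by a log2 difference of 0.45 (SE 0.13, adjusted p = 0.0208).

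Lmod1 relative to Acta2, the filament nucleator against its actin, separated the tissues as well. The ratio was 0.124, 0.105 and 0.133 in bladder, 0.9075, 0.932 and 0.929 in intestine and 1.29 and 1.20 in lung. The 3 ranges were apart. Under the 18 other settings tried the Lmod1 difference from bladder stayed between 2.81 and 3.36 in intestine and between 3.31 and 3.93 in lung, with every adjusted p under the threshold. For lung minus intestine it stayed between 0.37 and 0.57, and 4 settings missed the threshold (adjusted p 0.00462 to 0.0964 over the settings). Among these were the fits without intestine library 2 (adjusted p = 0.0741), intestine library 3 (0.063) or lung library 1 (0.0964).

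Tpm1, which codes for the alpha-tropomyosins (chromosome 9, 66929872 to 66956688, minus strand), was at 4167, 3990 and 3765 in bladder. It was at 3818, 3538 and 3869 in intestine and at 3479 and 3630 in lung. Bladder and intestine overlapped, and both lung libraries were below every bladder library. No difference passed the test: intestine minus bladder was -0.09 (SE 0.06, limma adjusted p = 0.259) and lung minus bladder -0.16 (SE 0.07, adjusted p = 0.088), and both turned positive with the deposited scaling undone (0.31 and 0.35). Lung minus intestine was -0.07 (SE 0.07, adjusted p = 0.421) and turned to 0.04 in the same way.

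Tpm2, which codes for beta-tropomyosin (chromosome 4, 43514711 to 43523765, minus strand), was at 2411, 2228 and 2117 in bladder, at 2093, 1923 and 2096 in intestine and at 2235 and 2296 in lung. Bladder and lung overlapped, and intestine was below both. Intestine minus bladder was -0.14 (SE 0.07, limma adjusted p = 0.114) and turned to 0.25 with the scaling undone. Lung minus bladder was 0.01 (SE 0.08, adjusted p = 0.942) and turned to -0.03 with scaling on genes of low read density. Lung minus intestine was 0.15 (SE 0.08, adjusted p = 0.147). The share of Tpm2 relative to Tpm1 was highest in lung: 0.642 and 0.6325, against 0.579, 0.558 and 0.562 in bladder and 0.548, 0.5435 and 0.542 in intestine. The deposited values are per gene, so the smooth muscle and other splice forms of Tpm1, Tpm2, Cald1 and Smtn were not separated.

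Cald1, caldesmon 1 (chromosome 6, 34575435 to 34752408, plus strand), has the longest exons of the group, 12041 nt in all. It was at 5259, 4887 and 4588 in bladder, at 5983, 5425 and 5630 in intestine and at 6268 and 6054 in lung. The libraries of each tissue were above all those of the tissue before it in that order. Cald1 was higher in intestine than in bladder by 0.21 (SE 0.06, limma adjusted p = 0.0184) and in lung than in bladder by 0.33 (SE 0.07, adjusted p = 0.00463). Lung minus intestine was 0.12 (SE 0.07, adjusted p = 0.211). The direction against bladder held under all 18 settings, between 0.05 and 0.61 for intestine and between 0.28 and 0.84 for lung, but 6 settings missed the threshold for intestine. Leaving out bladder library 2 or 3 or intestine library 1 or 3 gave adjusted p of 0.0517, 0.0579, 0.0808 and 0.0538. Scaling on genes of low read density also lost the call and gave the lowest difference, 0.05. The highest limma adjusted p over the settings was 0.562.

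Cnn1, calponin 1 (chromosome 9, 22010512 to 22020926, plus strand), was at 3156, 2777 and 2689 in bladder, at 2505, 2324 and 2551 in intestine and at 2520 and 2625 in lung. Bladder was above both other tissues in every library. Intestine minus bladder was -0.22 (SE 0.07, limma adjusted p = 0.0311) and lung minus bladder -0.16 (SE 0.08, adjusted p = 0.164). The call for intestine was lost without any one of the same 5 libraries as for Actg2 (adjusted p 0.0507 to 0.117). The differences turned to 0.17 and 0.36 with the scaling undone and to 0.04 and 0.11 with quantile normalization. Lung minus intestine was 0.07 (SE 0.08, adjusted p = 0.565).

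Tagln, transgelin or SM22, a calponin-related actin-bundling protein (chromosome 9, 45840917 to 45847356, minus strand), differed in every comparison. It was at 188, 155 and 160 in bladder, at 346, 279 and 318 in intestine and at 475 and 485 in lung. No pair of tissues overlapped. Tagln was higher in intestine than in bladder by 0.90 (SE 0.14, limma adjusted p = 0.000622), in lung than in bladder by 1.52 (SE 0.16, adjusted p = 8.12e-05) and in lung than in intestine by 0.61 (SE 0.16, adjusted p = 0.0143). Folds of the means were 1.88, 2.86 and 1.53.

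The Tagln count has a limit that Smtn shares to a smaller extent. In GENCODE M21, 1349 of its 1988 exonic nt (67.9%) lie under exons of Pcsk7 and Gm48529 on the other strand, the library kit does not mark the strand, and the strand setting of the counting is not given in the sources used here. Of its 50-base stretches, 747 of 1546 (48.3%) also occur in transcripts of Gm48529 or Pcsk7. Gm48529 itself was at 9, 9 and 9 in bladder, 75, 38 and 31 in intestine and 183 and 76 in lung. Pcsk7, a proprotein convertase gene, was at 772, 870 and 637 in bladder, 1312, 1388 and 1381 in intestine and 1226 and 976 in lung. Both neighbours were thus higher outside bladder, as Tagln was. How reads of the shared exons were assigned or discarded was not tested, and the Tagln level and its differences are uncertain to that extent.

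Cnn1 divided by Tagln, a pair of related calponin-family genes, went from 16.8, 17.9 and 16.8 in bladder to 7.24, 8.33 and 8.02 in intestine and 5.31 and 5.41 in lung. The tissues did not overlap. This ratio carries the same limit as the Tagln count.

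Smtn, smoothelin (chromosome 11, 3467523 to 3490612, minus strand), was at 3483, 3321 and 3385 in bladder, at 4011, 3746 and 4040 in intestine and at 3971 and 4048 in lung. Bladder was below the other tissues in every library, and intestine and lung overlapped. Smtn was higher in intestine than in bladder by 0.21 (SE 0.05, limma adjusted p = 0.00776) and in lung than in bladder by 0.24 (SE 0.06, adjusted p = 0.00959). Lung minus intestine was 0.03 (SE 0.06, adjusted p = 0.729). With scaling on genes of low read density the differences from bladder were 0.05 and 0.20 and missed the threshold. Exons of Gm11946 and Gm11947 on the other strand cover 714 of its 4380 exonic nt (16.3%), 441 of 2971 of its 50-base stretches (14.8%) occur in Gm11946, and Gm11946 was at 11 to 22 in bladder, 39 to 50 in intestine and 23 to 28 in lung. In GENCODE M21 no exon bases of the other 7 genes were shared with another gene. In the deposited table the span of Cald1 also overlaps Gm13861, and that of Tpm1 overlaps 2 genes without a symbol, whose exons were not compared.

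**Figure D2:**
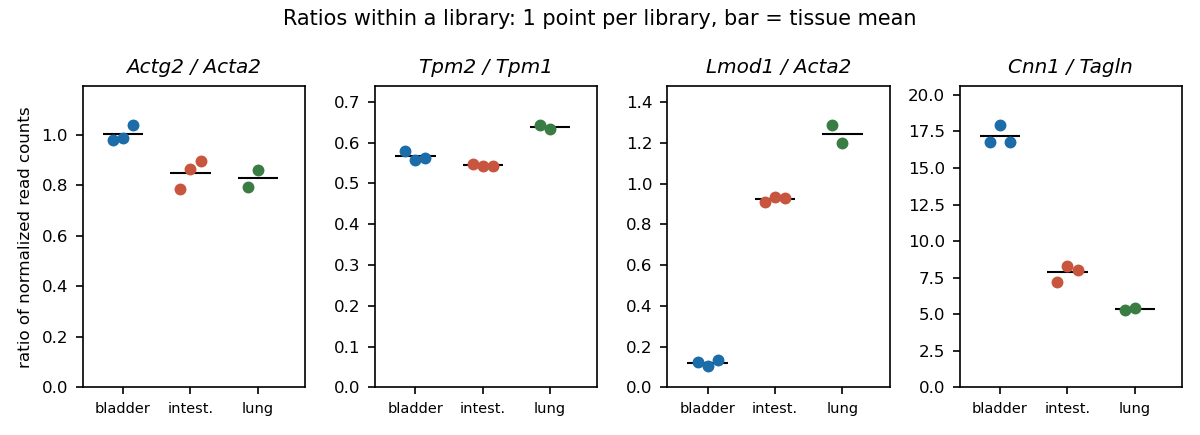
Ratios of normalized read counts within a library (vertical axes, each from 0) by tissue, with 1 point per library and a bar at the tissue mean. Lmod1 relative to Acta2 lies between 0.105 and 0.133 in bladder and between 0.9075 and 1.29 elsewhere, and Actg2 relative to Acta2 is highest in bladder.

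Counted together, 4 thin filament genes were higher for intestine than for bladder (Tagln, Cald1, Smtn and Lmod1; 28.7% of all genes tested were higher), 2 were lower (Actg2 and Cnn1; 23.3% of all were lower) and 3 did not pass. In lung, the same 4 genes were higher than in bladder, where 19.2% of all genes were higher. None of the 9 was lower by limma (21.8% of all were), and 2, Actg2 and Tpm1, were lower at an unadjusted p under 0.05. Between lung and intestine, Tagln and Lmod1 were higher in lung (15.9% of all were higher), none was lower (23.6% of all), also at an unadjusted p under 0.05, and 7 did not pass. The F test over the 3 tissues called Tagln, Cald1, Smtn and Lmod1, 4 of the 9 genes, against 62.9% of all genes tested. In the 3 comparisons 51.9%, 41.0% and 39.5% of all genes passed in either direction, so differing between these tissues was common, and 6, 4 and 2 of 9 is not far from that background. The median difference of the 9 genes was 0.03, 0.05 and 0.07, and that of all genes 0.06, 0 and -0.04. What set Lmod1 and Tagln apart from the other 7 was size: their tissue means spanned 3.41 and 1.52 on the log2 scale.

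**Figure D3:**
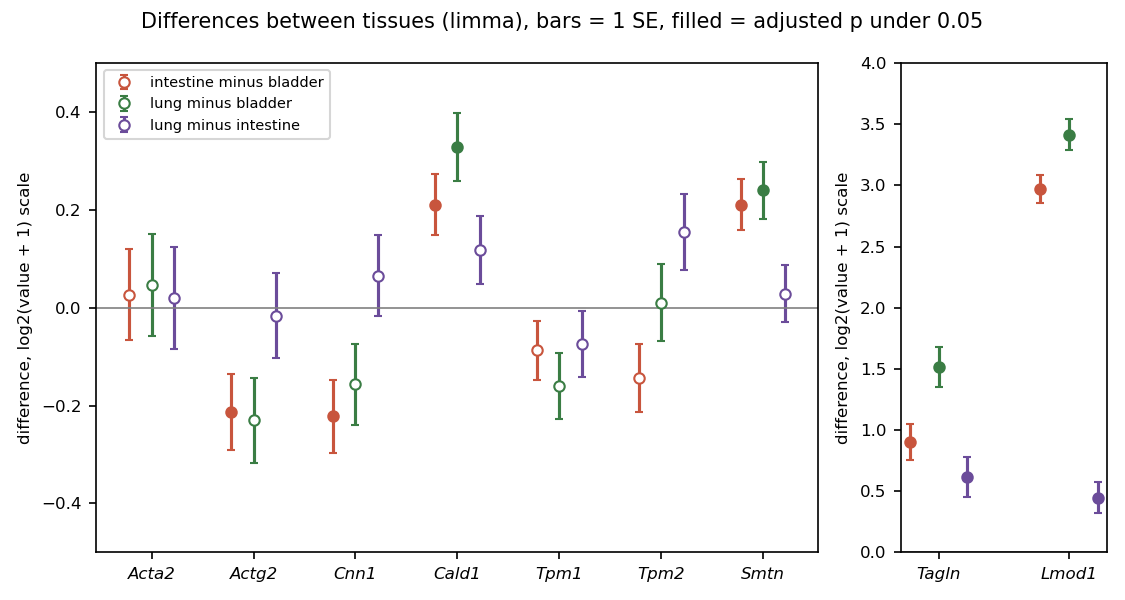
Difference between tissues for each thin filament gene on the log2(value + 1) scale (vertical axis), with bars of 1 SE from limma; filled points have an adjusted p under 0.05. Lmod1 at 2.97 and 3.41 and Tagln at 0.90 and 1.52 stand above the other genes in both comparisons with bladder, and the signs of the small differences of Actg2, Cnn1, Tpm1 and Tpm2 from bladder turn under other scalings.

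Levels can be compared between genes only per length, as reconstructed reads per nt of exon. These densities are not corrected for depth, which was lower in bladder, so they compare genes within a tissue and not tissues. On that scale Actg2, Acta2, Cnn1 and Smtn held ranks 1 to 4 of the 9 in every tissue. The lengths merge the exons of all annotated transcripts: 6485 nt for Tpm1, 12041 for Cald1 and 1557 for Actg2. In 1 transcript per gene they were 1824, 4777 and 1333 nt, so the ranks rest on the length used. Ranks by transcript length were not computed. Actg2 had means of 1.39, 1.57 and 1.68 reads per nt in bladder, intestine and lung, and Acta2 0.982, 1.32 and 1.45. Tpm2 (0.643, 0.765 and 0.923) and Tpm1 (0.509, 0.630 and 0.650) came next in bladder. The nucleator Lmod1 moved from rank 9 in bladder (0.0659 reads per nt) to rank 6 in intestine (0.675) and rank 5 in lung (1.00). Tagln was at 0.0701, 0.1725 and 0.286 and held rank 8, then 9. Neighbours in this order whose libraries overlapped were Smtn and Tpm2, and Tagln and Lmod1, in bladder. In intestine they were Cnn1 and Smtn, and Lmod1 and Tpm1, and in lung Smtn and Lmod1, and Lmod1 and Tpm2.

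The level of a gene also went along with its difference from bladder across the whole table. Over the 339 tested genes with at least 1 read per nt, among them Acta2 and Actg2, the median difference from bladder was -0.40 in intestine and -0.42 in lung, and 75.8% and 74% of them passed as lower. Over the 1295 genes from 0.5 to 1 read per nt, which include Cnn1, Tpm1, Tpm2, Smtn and Lmod1, the medians were -0.28 and -0.18. Over the 10005 genes under 0.1 they were 0.30 and 0. Acta2 (0.03 and 0.05) and Actg2 (-0.21 and -0.23) were thus above the median of genes of like density in both comparisons. Tpm1 was above the median of its class in intestine (-0.09, SE 0.06). Cnn1 in both comparisons (-0.22, SE 0.07 and -0.16, SE 0.08) and Tpm1 in lung (-0.16, SE 0.07) lay within 1 SE of theirs. The highest density of any gene of at least 500 nt was 2.01 reads per nt, and Actg2 lay at the 99.79th percentile. How this relation between density and difference arose was not tested.

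**Figure D4:**
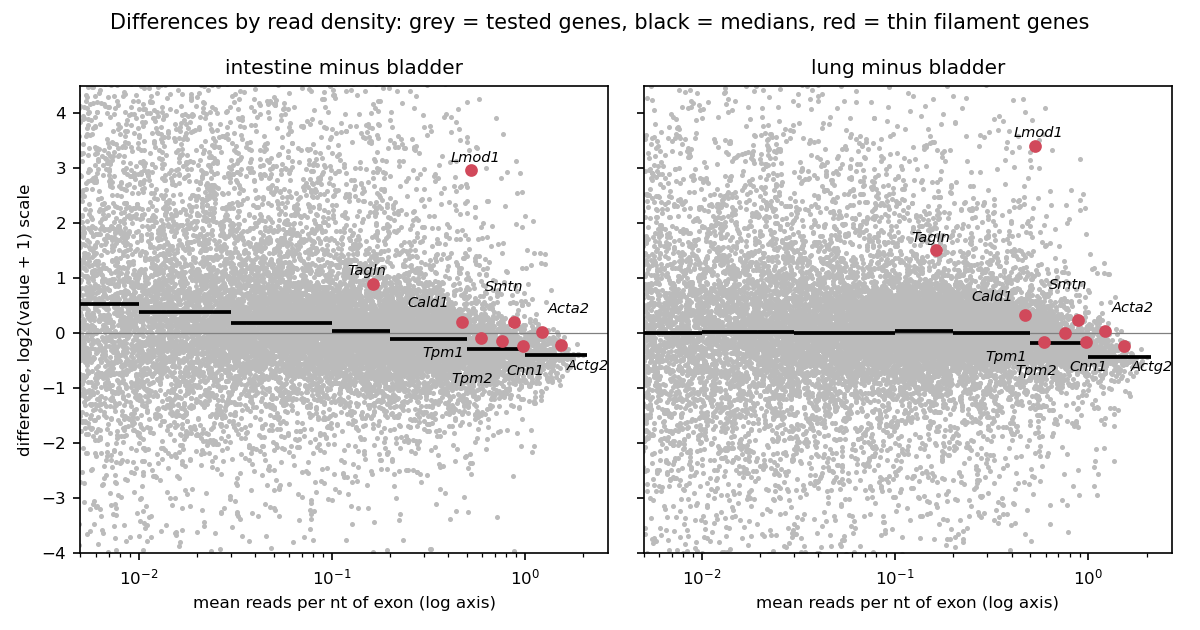
Difference between tissues on the log2(value + 1) scale (vertical axis) against mean reads per nt of exon (horizontal log axis) for the tested genes within the plotted range in grey, with medians by density in black and the thin filament genes in red. The black medians of genes with at least 1 read per nt lie at -0.40 and -0.42 in the comparisons with bladder, and Acta2 and Actg2 lie above them.

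The deposited scaling lowered intestine by 0.40 and lung by 0.51 relative to bladder on the log2 scale, and lung by 0.12 relative to intestine. Undoing it left the lower depth of the bladder libraries uncorrected and gave all 9 genes higher in intestine and in lung than in bladder. The medians were 0.42 and 0.56. Over all 18097 genes 8320 and 7949 were then higher, with medians of 0.45 and 0.48. Equal totals moved the median of all genes for intestine minus bladder from 0.06 to 0.15, and the one for lung minus bladder from 0 to 0.12. Of the 12 differences that passed the test, 6 kept their direction and their call under all 5 scalings and every other setting: Tagln in the 3 comparisons, Lmod1 in both comparisons with bladder, and Cald1 between lung and bladder.

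**Figure D5:**
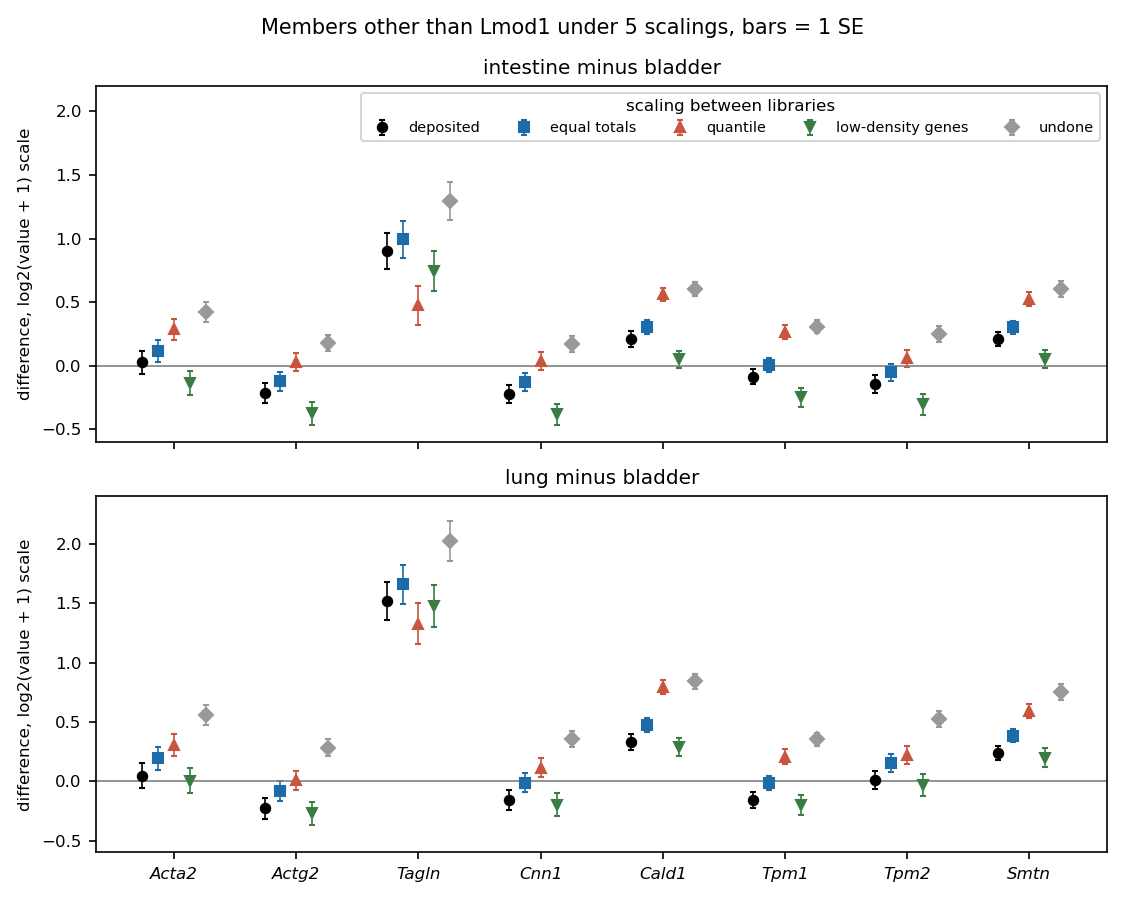
Difference between tissues on the log2(value + 1) scale (vertical axis) for the 8 thin filament genes other than Lmod1 under 5 scalings of the libraries, with bars of 1 SE from limma. Actg2 for intestine minus bladder runs from -0.37 with scaling on genes of low read density to 0.18 with the deposited scaling undone, whereas Tagln stays above 0.

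The other genes of the actin filament were read in the same way. Of 37 listed genes for other actins, tropomyosins, calponins, transgelins, leiomodins, actinins and actin-handling proteins, 36 were tested: 9 were higher and 20 lower in intestine than in bladder, with a median of -0.29. For lung minus bladder 11 were higher and 18 lower (median -0.22). The balance moved with the scaling. With the deposited scaling undone, 14 were higher and 3 lower in intestine (median 0.08) and 24 higher and 3 lower in lung (median 0.29). With equal totals the counts were 9 and 18 in intestine and 11 and 11 in lung, with quantile normalization 10 and 10, and 14 and 8, and with scaling on genes of low read density 9 and 22, and 11 and 17.

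Actb, Tpm4 and Cnn3, among the cytoplasmic and non-muscle paralogues, were lower outside bladder in the deposited values. With the scaling undone, and so without correction for depth, that direction turned in 4 of 6 differences. Actb, a cytoplasmic actin, had means of 3544, 2868 and 2768.5 in bladder, intestine and lung (-0.30, SE 0.06 and -0.35, SE 0.07 against bladder; limma adjusted p = 0.00328 and 0.00372). Tpm4, a largely non-muscle tropomyosin gene, was at 4059, 2916 and 3203 (-0.48 and -0.34, adjusted p = 0.000315 and 0.00621), and Cnn3, the acidic calponin, at 3085, 2320 and 2384.5 (-0.41 and -0.37, adjusted p = 0.000553 and 0.00291). With the scaling undone these differences were 0.09 and 0.16 for Actb, -0.08 and 0.17 for Tpm4 and -0.02 and 0.14 for Cnn3. In the deposited values Actg1, Tpm3 and Tagln2 also passed as lower in both comparisons. Cnn2, another calponin gene, differed less (-0.17 and -0.02, limma adjusted p = 0.0411 and 0.822).

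Striated muscle paralogues differed by more. Acta1, the skeletal muscle actin, was at 1012 ± 248 (SD, n = 3) in bladder, 237 ± 15.5 (SD, n = 3) in intestine and 392.5 ± 156 (SD, n = 2) in lung. It was lower than in bladder by -2.06 (SE 0.23, limma adjusted p = 6.8e-05) in intestine and -1.40 (SE 0.26, adjusted p = 0.00224) in lung, and lower under all 5 scalings. Actc1, the cardiac actin, had 47.7 ± 6.66 normalized counts in bladder, 69.3 ± 40.5 in intestine and as many as 2329.5 ± 17.7 in lung (5.59 for lung minus bladder, adjusted p = 7.89e-06). Of the leiomodin relatives, Lmod2 was at 0 in every bladder and intestine library with a mean of 22 in lung, and Lmod3 had means of 0.667, 78 and 33.5 (5.76 and 4.58 against bladder, adjusted p = 1.29e-05 and 0.00018).

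The genes of this list with the smallest F-test p were Filip1l, a filamin A interacting protein (739 ± 108, 3640 ± 296 and 4069 ± 223 in bladder, intestine and lung), the actinin Actn1 (749 ± 82.3, 2468 ± 161 and 4011.5 ± 579) and Cap2, a cyclase-associated actin regulator (354 ± 52.9, 1918 ± 242 and 1463.5 ± 329). All 3 passed in both comparisons with bladder under all 5 scalings, with log2 differences of 2.30, 1.72 and 2.44 for intestine and 2.47, 2.42 and 2.04 for lung.

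Genes that act on or with the filament gave the following counts. Of 16 thick filament and myosin light chain genes, 7 were higher and 3 lower in intestine than in bladder, and 8 higher and 2 lower in lung. Mylk, the myosin light chain kinase gene, had 2028 ± 198 normalized counts in bladder against 5570 ± 247 for intestine and 5840.5 ± 10.6 for lung (1.46 and 1.53, limma adjusted p = 7.68e-07 and 1.77e-06). Myh11, the smooth muscle myosin heavy chain gene, was at 5041 ± 921, 11954 ± 546 and 10586.5 ± 295. Lmod1, Mylk and Myh11 were thus all lowest in every bladder library, while Acta2 was not. Myl9, a myosin light chain gene, went the other way in the deposited values. Its means were 2376, 2071 and 1940 (-0.20 and -0.29 against bladder, limma adjusted p = 0.0411 and 0.0159). The non-muscle myosin gene Myh10 was instead lowest in intestine, with means of 2593, 572 and 3238 (-2.19 for intestine minus bladder, adjusted p = 1.63e-06).

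Of 11 serum response factor and myocardin regulators, 5 were higher and 2 lower in intestine than in bladder, and 5 higher and 1 lower in lung. Myocd, the myocardin coactivator gene, had only 52.3 ± 22.5 normalized counts in bladder against 688 ± 79.1 for intestine and 496 ± 274 for lung (3.77 and 3.19, limma adjusted p = 2.24e-05 and 0.000209). Srf, the factor it binds, was at 706 ± 144, 829 ± 125 and 1353 ± 209, with adjusted p = 0.262 for intestine and 0.0031 for lung against bladder. Mef2c, a transcription factor of muscle and mesenchyme, had means of 440, 3575 and 1528 (3.02 and 1.76, adjusted p = 1.42e-06 and 0.000111). Klf4, a repressor of smooth muscle genes, had means of 4635, 2457 and 856 (-0.91 and -2.49, adjusted p = 0.0016 and 1.18e-05).

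Marker lists of cell types were summed per library as parts per 1000000 of all values (ppm), to show what else moved with these differences. All 15 fibroblast markers passed as lower in intestine and in lung than in bladder (9 and 12 with the scaling undone), with sums of 7627.1 to 8330.9 ppm in bladder, 5604 to 5976.6 in intestine and 4378.7 to 4989.3 in lung. The 9 thin filament genes summed to 1810.8 to 2013.9, 2104.5 to 2297.2 and 2440.6 to 2479.4 ppm. These sums include Lmod1, with mean normalized counts of 313, 2438 and 3326, while the means of Actg2, Cnn1 and Tpm1 were highest in bladder. Of 10 smooth muscle markers outside the 9 genes, 8 were higher and 1 lower in intestine, and 6 higher and 1 lower in lung, than in bladder. The sums were 937.3 to 1239.3 ppm in bladder, 2616.5 to 2775.3 in intestine and 2666 to 3280.7 in lung, and no marker was at 0 in any tissue. Mylk, Myh11 and Myocd are in this list as well as in those above. These markers do not separate non-vascular from vascular smooth muscle.

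Pericyte and vascular smooth muscle markers were, like Lmod1, mostly lowest in bladder. Of 13, 10 were higher and 1 lower in intestine, and 9 higher and 1 lower in lung, than in bladder, with sums of 915.8 to 958.5 ppm in bladder, 2801 to 2981.6 in intestine and 2240 to 2602.2 in lung, and Rergl was at 0 in lung. Cspg4, which drives the Dre, had means of 412 ± 23.4 in bladder, 4402 ± 200.5 in intestine and 4401 ± 503 in lung. Of 23 cardiac and skeletal muscle genes 20 were tested: 4 were higher and 6 lower in intestine, and 14 higher and 2 lower in lung, than in bladder, with sums of 179.2 to 227.9 ppm in bladder, 106.3 to 115.8 in intestine and 617.4 to 678.7 in lung, and Myh7 and Neb at 0 in bladder. The part of these other cell types in the thin filament values was not tested.

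Endothelial markers were lowest in bladder and highest in intestine by their sums: 11 of 12 were higher and 1 lower in intestine, and 8 higher and 2 lower in lung, with sums of 489.4 to 657.9, 1500.2 to 1667.4 and 938.1 to 1030.6 ppm in bladder, intestine and lung. Epithelial markers split, with 9 of 19 higher and 5 lower in intestine and 5 higher and 11 lower in lung (781.1 to 1140, 1508.2 to 1583.1 and 252.4 to 300.2 ppm). Cdx1 and Cdx2, intestinal epithelial factors, were at 0 in bladder and lung, Krt5 at 0 in intestine and lung, and Upk2 at 0 in lung. Intestine exceeded bladder in all 12 neuron and glia markers, and 3 were higher and 2 lower in lung (44.5 to 53, 358.8 to 406 and 82.3 to 136.5 ppm), with Vip and Chat at 0 in bladder and Sox10 and Chat at 0 in lung.

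The remaining lists were small in sum or mixed in direction. Of 12 leukocyte markers 4 were higher and 5 lower in intestine, and 6 higher and 5 lower in lung (337.2 to 577, 283 to 316.1 and 197 to 216.1 ppm), with Cd3e, Ms4a1 and S100a9 at 0 in bladder. Of 5 markers of interstitial cells of Cajal, the pacemaker cells of gut muscle, 3 were higher in intestine, and 3 were higher and 1 lower in lung (214.4 to 237.3, 462 to 537.8 and 369.7 to 597.1 ppm). Of 6 mesothelial markers 3 were lower in intestine and 6 in lung (242.3 to 389.1, 229.3 to 261.9 and 44.1 to 91.9 ppm). The part of these cells in the thin filament values was likewise not tested.

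For the 2 genes whose tissue means spanned at least 1 log2 unit, the nearest profiles were sought among 11645 named genes with a mean value of at least 100 by the root of summed squared differences of centred log2 values over the 8 libraries. Nearest to Lmod1 were Kcnmb1, the beta subunit of the BK potassium channel of smooth muscle (distance 0.44; 197 ± 36.3, 1484 ± 237 and 2548.5 ± 262), P2ry14, a receptor for UDP-glucose (0.45; means of 257, 1706 and 2624.5), and Mcam, a cell adhesion molecule of mural and endothelial cells (0.46; 460 ± 78.7, 4033 ± 236 and 4119 ± 83.4). Nearest to Tagln were Slc6a6, the taurine transporter (0.35; means of 1141, 1936 and 2789.5), Slc25a23, a mitochondrial carrier (0.37; 512, 961 and 1427.5), and Synpo, an actin-associated protein (0.39; 1316, 2670 and 4399). All 6 were lowest in every bladder library and, Mcam apart, highest in both lung libraries. That order comes with choosing them by likeness to Lmod1 or Tagln and is not a separate result. Mcam is also one of the 13 pericyte and vascular markers. The likeness is a description over 8 libraries that share 3 tissues.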

How the data were processed

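RNA sequencing values of 8 libraries (bladder 3, intestine 3, lung 2) were analysed for 9 genes chosen by symbol. The members and lists were chosen with earlier results of these data known. Per the submitters' processing notes, Trimmomatic 0.39, STAR 2.7.10a, Picard 3.0.0, featureCounts 2.0.4 and DESeq2 1.36.0 were used with build mm39; the sources used here do not give their settings, strand option or read length. Per the labels' protocols, at most 10 ng of RNA entered SMART-Seq v4, a kit that does not mark the strand.

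The deposited values were treated as a score: whole numbers spaced like read counts times a library-specific factor (0.822 to 1.2685 per read), then rounded, so count models were not run. Dividing by that factor gave reconstructed reads, used for depth, for reads per nt (exon lengths from GENCODE M21, matched for 96.8% of gene IDs) and for alternatives. Floors of 3 reads cover counting error only, since PCR copies were not marked by molecular identifiers.

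The test was limma 3.58.1 (R 4.3.3) with an intensity trend on log2(value + 1), fitted to all 8 libraries and to 18097 genes at 10 or more in at least 2 libraries (3552 were not tested), two-sided, with Benjamini-Hochberg adjustment and a threshold of 0.05. The script was tested on simulated data. Other genes were named by rule: up to 3 per list with the smallest F-test p and a mean of at least 100 in a tissue, the genes driving the recombinases, and the nearest profiles. Paralogues of the members, overlapping genes, Myl9 and Srf were named after their values were seen. Averaged over genes, replicate libraries differed by more than counting noise, and none was identical. The chi-square per gene between 2 libraries, which is 1 for pure counting, was 24.33 for the lung pair. It was 4.75 to 7.9 for the pairs within bladder or intestine. Alternatives were another pseudocount (0.5, 10), no filter, 4 other scalings, only the compared tissues, no trend, a replicate block, and leaving out each library.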

Additional observations from a re-analysis of the deposited data

How the results depend on the processing

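Of 486 refits of a gene and tissue pair, 406 kept direction and call, 30 lost the call, 16 gained it and 34 turned. For counts of genes and ratios, 140 values were like the reported one and 29 moved. Against 4 higher and 2 lower genes for intestine minus bladder, 9 and 0 were called with the deposited scaling undone, 2 and 4 with scaling on genes of low read density, 2 and 0 without the intensity trend, and 0 lower with equal totals (4 higher), quantile normalization (6 higher) or the replicate block. Leaving out 1 library gave 0 to 2 lower. For lung minus bladder (4 higher, 0 lower), 9 were higher with scaling undone, 7 with quantile normalization, 4 with equal totals and 3 with low-density scaling. 1 was lower with low-density scaling and 0 to 1 when a library was left out. For lung minus intestine (2 higher), 4 were higher with scaling undone or on low density, 3 with equal totals or quantile normalization, 1 without the trend and 1 to 2 when a library was left out. The F test (4 genes, against 62.9% of all genes tested) called 9, 7 and 2 with scaling undone, on low density and without the trend. The shares of all genes called by it under these settings were not taken, so these counts have no background beside them. Cnn1 to Tagln with 10 added to each value was 16.3 in bladder and 5.27 in lung. 

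Differences near 0 turned as follows, on the log2 scale. For intestine minus bladder, scaling undone gave Actg2 0.18, Cnn1 0.17, Tpm1 0.31 and Tpm2 0.25, quantile normalization 0.030, 0.040, 0.27 and 0.06, equal totals Tpm1 0.0045, and low-density scaling Acta2 -0.13. Leaving out 1 library, Acta2 ran from -0.052 (without bladder 3) to 0.12 (without bladder 1). For lung minus bladder, scaling undone gave Actg2 0.28, Cnn1 0.36 and Tpm1 0.35, quantile normalization 0.0067, 0.11 and 0.21, and low-density scaling Tpm2 -0.031. Leaving out 1 library, Acta2 ran from -0.032 (without bladder 3) to 0.14, and Tpm2 from -0.033 (without bladder 3) to 0.061. Tpm2 was -0.0007 with the replicate block. For lung minus intestine, Actg2 was 0.10 with scaling undone, 0.038 with equal totals, 0.10 with low-density scaling and -0.053 (without intestine 2) to 0.019 (without lung 1) when a library was left out. Tpm1 was 0.043 and 0.045 with scaling undone and on low density. Acta2 was -0.025 with the replicate block and -0.032 (without intestine 2) to 0.082 when a library was left out, and Smtn -0.0058 (without intestine 2) to 0.049. The causes were not tested.

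Deviations of libraries with the same replicate number correlated at -0.026 to 0.058, and of those with different numbers at -0.072 to 0.072. With so few libraries per tissue the deviations are tied to each other, so these values cannot show whether same-numbered libraries share a mouse. With the number as a replicate block, Actg2 and Cnn1 no longer passed for intestine minus bladder. The share of calls that were higher, over all genes, was 55.2%, 46.7% and 40.3% in the 3 comparisons. It became 81.1%, 80.6% and 51% with scaling undone, 41.7% and 59.5% with quantile normalization (first and last comparison), 44.7% and 50.5% with low-density scaling (first and last) and 58.5% with equal totals (lung minus bladder). Count models (edgeR, DESeq2) were not run because the deposited values are not counts. With 1 lung library left, it was assumed to vary like the others.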

Other observations

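The reads behind the deposited values showed a spread between libraries of a tissue that differed from gene to gene, a check added after seeing the data. Before any scaling, Actg2 had 2439 to 2452 reconstructed reads in the 3 intestine libraries and 2618 to 2628 in the 2 lung libraries. The SD was 6.56 and 7.07 reads, while counting alone would give an SD of 49.5 and 51.2. Over the same intestine libraries Acta2 ran from 2715 to 3126 (SD 213, counting 53.7) and Lmod1 from 2522 to 2837 (SD 160, counting 51.6). The variance over the mean, which is 1 for pure counting, was 0.018 for Actg2, 0.362 for Cnn1, 0.764 for Tpm1 and 0.879 for Tpm2 in intestine. In bladder it was 7.975, 8.936, 4.65 and 3.416 for these 4 genes.

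Across the table this measure differed between classes of read density, in no single order. In intestine its median was 0.87 over the 339 genes with at least 1 read per nt, of which 52.2% were under 1. It was 2.60 over the 1295 genes from 0.5 to 1 read per nt, 5.35 over the 6026 genes from 0.1 to 0.5, and 4.3 over the 9889 genes under 0.1. In lung the medians of the same 4 classes were 2.45, 6.5, 12.01 and 4.26, and in bladder 3.69, 8.86, 7.11 and 2.93. With 2 or 3 libraries per tissue each single value is imprecise, and these values were described and not tested.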
